A study of Homo sapiens with 6 samples.

Results

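HERV-E is a family of human endogenous retroviruses, the remains of retroviral infections of the germ line. The elements described here were all RepeatMasker features of GRCh38 that the LTR files name HERVE-int or HERVE_a-int (internal sequences) or LTR2, LTR2B or LTR2C (long terminal repeats). There were 1934 such elements among 720177 LTR elements in each file: 268 HERVE-int, 195 HERVE_a-int, 848 LTR2, 320 LTR2B and 303 LTR2C. Total RNA came from 4 cell lines of atypical teratoid rhabdoid tumor (AT/RT), namely CHLA 02, CHLA 04, CHLA 05 and, as the line the study places in a different subgroup, CHLA 06. AT/RT is a brain tumor of early childhood that usually lacks SMARCB1, a subunit of the SWI/SNF chromatin remodeler, and the study describes all these lines as lacking it. All lines grew in the same defined medium with EGF, basic FGF and B-27, received no treatment and had no control line. CHLA 02 and CHLA 05 were sequenced as 1 library each, CHLA 04 and CHLA 06 as 2 technical replicates each, so that every line stands for 1 biological sample. Values are listed below in the order of the line numbers, with replicate 1 before replicate 2 and the replicates of a line joined by "and".

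A provirus consists of an internal sequence with the gag, pol and env genes between a 5′ and a 3′ LTR. The LTRs were identical at insertion, carry the promoter and the polyadenylation signal, and remain alone as a solo LTR when they recombine. A retroviral transcript starts inside the 5′ LTR and ends inside the 3′ LTR, so the upstream portion of the LTR, U3, is present in it at the 3′ end. The letter E stands for the glutamate tRNA whose complement, the primer binding site, lies next to the 5′ LTR. HERV-E transcripts are known from placenta and from clear cell kidney cancer, and LTR2 elements are known as alternative promoters of human genes.

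The annotated names did not follow the proviruses closely. Of the 1471 LTR elements, 488 (33.2%) lay within 20 bp of an internal element on their strand. For 225 of them it was Harlequin-int, a related internal sequence that RepeatMasker names separately, and for 214 it was HERVE-int or HERVE_a-int. Harlequin-int lay beside 75 of 320 LTR2B, 146 of 848 LTR2 and 4 of 303 LTR2C elements. Reads on Harlequin-int are not counted as HERV-E below and are given only for the proviruses whose LTRs are described.

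The LTR sequences are shown because the polyadenylation signal lies in the part that marks the 3′ end of transcripts. These are the last 80 bases, 5′ to 3′ on the strand of the element, of the LTR2 and LTR2C elements with the highest mean TPM and of 3 other LTRs on which the results below turn. The letters AATAAA are in capitals where they occur.
PQLC2L 3′ LTR2, chr3:157579228-157579307, minus strand: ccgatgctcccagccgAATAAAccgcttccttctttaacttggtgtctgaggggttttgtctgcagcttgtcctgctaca
PQLC2L 5′ LTR2, chr3:157587548-157587627, minus strand: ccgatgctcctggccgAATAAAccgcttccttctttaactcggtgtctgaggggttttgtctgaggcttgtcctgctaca
QPRT LTR2C, chr16:29698662-29698741, plus strand: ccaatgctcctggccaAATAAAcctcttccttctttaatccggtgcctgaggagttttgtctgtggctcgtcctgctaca
MID1 LTR2B, chrX:10589853-10589932, minus strand: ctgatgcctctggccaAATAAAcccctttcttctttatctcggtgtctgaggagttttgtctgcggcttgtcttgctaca
PTN LTR2B, chr7:137268352-137268431, minus strand: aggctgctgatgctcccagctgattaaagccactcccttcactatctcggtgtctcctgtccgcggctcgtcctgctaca

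Of the 1134 LTR2, LTR2B and LTR2C elements of 400 bp or more, 980 (86.4%) held AATAAA on their own strand. It was held by 44.6% of 116185 other LTR elements of 400 to 530 bp. The letters TATAAA were found on the own strand of 4.94% of the LTR2-type elements and of 27.3% of the other LTRs. On either strand they were found in 93.9% of LTR2B, 53.2% of LTR2C and 6.70% of LTR2 elements. These matches describe the letters only.

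Downstream of the 5′ LTR, the first 30 bases of the internal sequence are shown, with TGGTTCCC, the beginning of the site that pairs with the glutamate tRNA, in capitals.
RPS23, chr5:82273254-82273283, minus strand: tttctTGGTTCCCtgaccaggaaacgaggt
PTN, chr7:137268322-137268351, minus strand: tttctTGGTTCCCtgaccggcaagcgaggt
MID1, chrX:10589823-10589852, minus strand: tttctTGGTTCCCtgaccaggaagcgaggt
ZNF586, chr19:57815724-57815753, plus strand: tttctTGGTTCCCtgactgggaagccaggt
TPTE2P5, chr13:40880796-40880825, minus strand: tttcttggttctctgactgggaagcgaggt
The 8 letters occurred within 40 bases of the end of 157 of 219 5′ LTRs (71.7%). Of the 17 such LTRs with 10 or more reads in a library, 14 had them. Within the LTRs themselves they were on the own strand of 0 of the 1134 elements, and of 1.01% of the other LTR elements.

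At least 1 read was recovered on 509 of the 1934 elements (26.3%). A detection threshold of 1.44 TPM was set here along the study's steps, at a peak of the smoothed variation where the study chose its own by inspection. By this rule 433 (22.4%) were detected, compared with 14.7% of all LTR elements. Detected elements included 93 of 463 internal elements (20.1%) and 340 of 1471 LTRs (23.1%). Of the 433, 261 had fewer than 5 reads in every library and 151 had at most 1, so that the detection rule counts many elements at the limit of the depth. With 10 or more reads in a library, 109 elements remained (5.64%), 37 internal and 72 LTR. Of all LTR elements, 2.76% had 10 or more reads. The median of the mean TPM over the 4 lines was, among members with 10 or more reads, 5.10 for internal elements and 33.0 for LTRs, compared with 23.1 for all LTR elements with 10 or more reads. The highest share of elements with 10 or more reads was in HERVE-int, with 28 of 268 (10.4%), and the lowest in LTR2C, with 12 of 303 (3.96%). The median length was 689 bp for HERVE-int and 259 bp for LTR2C. It was 461 bp for all members and 330 bp for all LTR elements, and these shares were not adjusted for length.

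From 355302 to 511408 reads of a library lay on LTR elements. The elements of the family took 1.01% of them in CHLA 02 (95% Wilson interval 0.979 to 1.04, counting error only). For CHLA 04 this was 0.970% and 0.873%, for CHLA 05 0.742%, and for CHLA 06 1.63% and 1.45%. By this share CHLA 06 lay above every other line by more than its own replicates differed. As a share of the summed TPM CHLA 06 no longer stood apart, since its 0.681% and 0.667% lay between the CHLA 04 replicates, at 0.745% and 0.652%. Without the member with the most reads of each line, which was the PQLC2L element in CHLA 06, CHLA 06 was at 0.830% and CHLA 02 at 0.837%. The features followed different orders. LTR2 was nearly even, at 0.212% to 0.245% of LTR reads in all 6 libraries. LTR2B was highest in CHLA 04, at 0.350% and 0.319%, and lowest in CHLA 05, at 0.117%. Of the 1243 and 1631 LTR2B reads in CHLA 04, an LTR2B on chromosome 13 held 511 and 582. An LTR2B in UBE2D2 held 272 and 320 of them, and both LTRs had no read in CHLA 05 and CHLA 06. LTR2C was highest in CHLA 06, at 0.142% and 0.157%, and lowest in CHLA 04, at 0.0169% and 0.0217%. HERVE_a-int was lowest in CHLA 05, at 0.0981%, and highest in CHLA 06, at 0.855% and 0.688%. CHLA 02 had 0.270% and the CHLA 04 replicates 0.129% and 0.108%. The PQLC2L element alone held 3567 of 3837 and 3004 of 3310 HERVE_a-int reads in CHLA 06, and 794 of 1255 in CHLA 02. It had no read in CHLA 04 and CHLA 05, so the order of HERVE_a-int rests on this element. HERVE-int stayed between 0.197% and 0.270%.

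**Figure D1:**
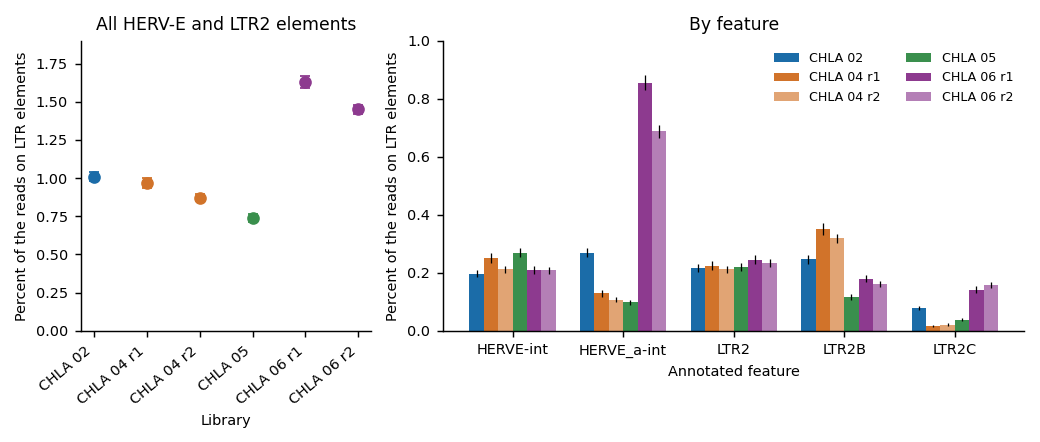
Share of the reads on LTR elements that fell on HERV-E internal and LTR2 elements in each library, in all (left) and by annotated feature (right), as percent; bars and whiskers show the share and its 95% Wilson interval (counting error only). LTR2 was even over the libraries, whereas HERVE_a-int and LTR2C were highest in CHLA 06 and LTR2B in CHLA 04. Most HERVE_a-int reads of CHLA 06 lay on the PQLC2L element, and most LTR2B reads of CHLA 04 on the 3′ LTRs at chromosome 13 and UBE2D2.

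Few elements carried most of the reads. The 10 highest members held 47.6% of the family's reads in CHLA 05 and 77.5% and 72.2% in the CHLA 06 replicates. The shares of CHLA 02 (58.0%) and CHLA 04 (56.4% and 54.2%) lay between them. Of the 109 elements with 10 or more reads, 33 (30.3%) had 10 or more reads in every line, compared with 20.9% of all LTR elements with 10 or more reads. No read in at least 1 line was seen for 33 of 109 (30.3%), near the 29.1% of all such elements. With a minimum of 20 reads in place of 10, a choice made after the data were seen, 18 members had no read in a line. The lines that lacked them differed: 12 members had no read in CHLA 04 alone (11.0%, and 2.93% of all elements), 6 in CHLA 06 alone (5.50%, and 7.45%), 6 in CHLA 04 and CHLA 05 (5.50%, and 6.48%) and 3 in CHLA 05 and CHLA 06 (2.75%, and 3.34%). The 12 absent from CHLA 04 alone were low elsewhere, with at most 35 reads in a library. They are not 12 separate loci, since they include neighboring pieces on chromosomes 2, 13 and X and near-identical copies on chromosome 8. In bulk RNA, fewer cells of a kind and less RNA per cell cannot be told apart.

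**Figure D2:**
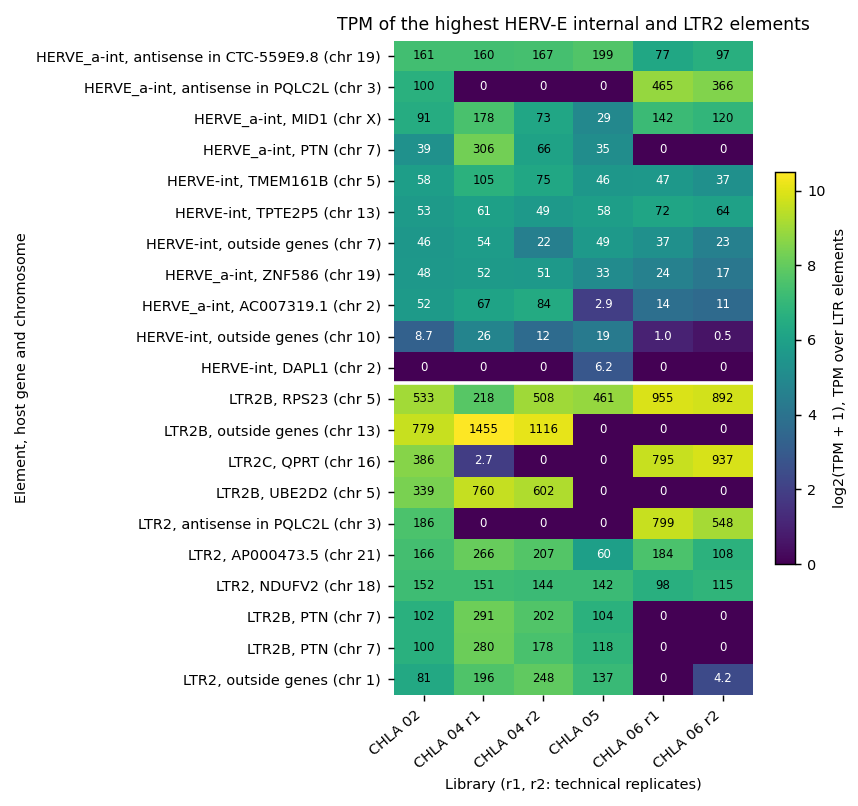
TPM, scaled over LTR elements, of the internal (upper block) and LTR elements (lower block) with the highest mean over the cell lines, and of the DAPL1 element, in each library; color gives log2(TPM + 1). Elements at 0 in CHLA 04 and CHLA 05, in CHLA 05 and CHLA 06, or in CHLA 06 stand beside elements that were read in all 6 libraries.

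The most highly read internal element was a nearly complete HERVE_a-int of 7861 bp at chr3:157579687-157587547, on the minus strand. It lies antisense in the span of PQLC2L. Its TPM was 100, 0 and 0, 0, 465 and 366, from 794, 0 and 0, 0, 3567 and 3004 reads. CHLA 02 and CHLA 06 were thus high, and CHLA 04 and CHLA 05 had no read. With 3 reads per library as the floor, its TPM in CHLA 02 was at least 197-fold higher than in the lines without a read. The 3′ LTR2 (chr3:157579228-157579682) had 85, 0 and 0, 0, 355 and 260 reads, while the 5′ LTR2 (chr3:157587548-157588006) had 0, 0 and 0, 0, 3 and 3. The LTRs were 91.3% identical, and the most similar other HERV-E internal element was 91.5% identical to this one. The longest open reading frame from an ATG on its strand had 191 codons. In the GENCODE release 44 annotation, a long noncoding RNA (ENSG00000286892) starts inside the internal element on its strand.

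PQLC2L itself, on the opposite strand, was at 46.4, 0 and 0, 0, 82.5 and 78.0 TPM on the scale of the transcript files. The libraries were stranded, but whether strand was used in the mapping is not given in the sources used here. The counts did differ by strand. Of all LTR elements with 10 or more reads whose genes were all on 1 strand, 91.8% shared that strand. Whether reads of transcripts across the element enter its values was not tested. EPAS1 encodes HIF-2α, the hypoxia factor associated with HERV-E transcription in kidney cancer that has lost VHL. It was at 89.6, 0.554 and 0, 2.05, 119 and 122 TPM. VHL, which marks HIF proteins for degradation, was at 69.5 to 83.8 TPM in all libraries, and HIF1A at 88.2 to 119 TPM. ARNT, the partner of both HIF proteins, was at 63.9 to 81.4 TPM. CA9, a HIF target, was at 0.344 TPM in CHLA 04 replicate 1 and listed at 0 in the others. Any part of it in the element's values was not tested.

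Of all members, the LTR2B at chr13:22889379-22889847, on the plus strand and outside genes, had the highest TPM in any library. It was at 779, 1455 and 1116, 0, 0 and 0 TPM, from 368, 511 and 582, 0, 0 and 0 reads. CHLA 02 and CHLA 04 were at least 111-fold above the floor of 3 reads in the libraries without a read. The element is the 3′ LTR of a provirus of 6288 bp whose internal sequence is Harlequin-int, with 4959, 6122 and 6322, 4, 0 and 0 reads. The 5′ LTR2B had 3, 2 and 4, 0, 0 and 0 reads. The nearest gene, LINC00621, lies 4809 bp away on the other strand.

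Another provirus of the kind lies at the start of a transcript of UBE2D2, which encodes a ubiquitin-conjugating enzyme. Its 3′ LTR2B (chr5:139531087-139531564, plus strand) was at 339, 760 and 602, 0, 0 and 0 TPM, from 163, 272 and 320, 0, 0 and 0 reads. The Harlequin-int pieces before it had 1714, 2716 and 3460, 1, 1 and 1 reads, and the 5′ LTR2B had 4, 5 and 2, 0, 0 and 0. CHLA 02 and CHLA 04 were high along the whole internal sequence, while CHLA 05 and CHLA 06 had at most 1 read on it. The Ensembl transcript ENST00000511725 of UBE2D2 starts 85 bases after the 5′ LTR2B. It was at 6.15, 24.9 and 34.9, 0.935, 0.394 and 0.178 TPM. Over all transcripts, UBE2D2 was at 247, 288 and 297, 102, 84.0 and 86.2 TPM, so that the gene was read in all lines.

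**Figure D3:**
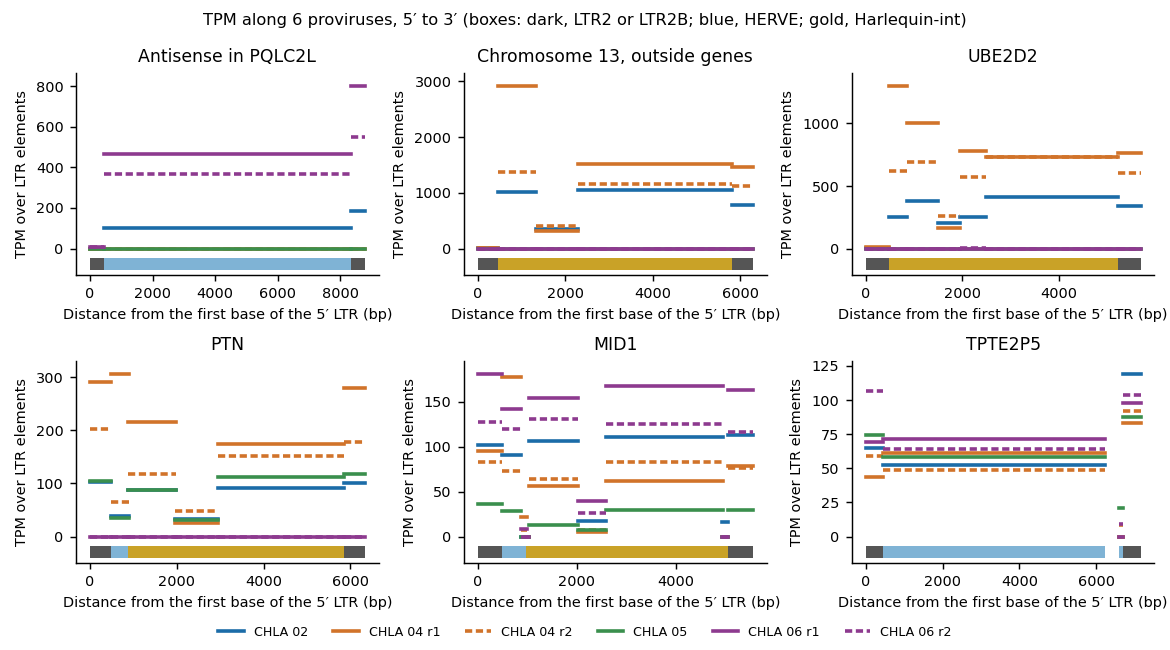
TPM, scaled over LTR elements, of each annotated piece of 6 proviruses against the distance from the first base of the 5′ LTR in bp; lines give libraries, and boxes give the LTR2 or LTR2B (dark), HERVE-int or HERVE_a-int (blue) and Harlequin-int (gold) pieces. In the upper row the 5′ LTR is near 0 and the internal sequence and 3′ LTR are high. In the lower row the 5′ and 3′ LTRs have like values in PTN and MID1. In TPTE2P5 the 3′ LTR is higher than the 5′ LTR in every library but CHLA 06 replicate 2.

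The LTRs of a provirus were compared for all 159 pairs of a 5′ and a 3′ LTR of the same name. The median identity within a pair was 89.4%. Of the 24 pairs with 10 or more reads over the 6 libraries, 15 had more on the 5′ LTR and 9 more on the 3′ LTR. The 3′ LTR had at least 2-fold the reads of the 5′ LTR in 5 pairs, and the 5′ LTR those of the 3′ LTR in 9. The proviruses at PQLC2L, chromosome 13 and UBE2D2 had 6 and 700, 9 and 1461, and 11 and 755 reads on the 5′ and 3′ LTR, summed over libraries. In PTN the sums were 317 and 299, in MID1 297 and 278, and in TPTE2P5 188 and 256. At RPS23 the 5′ LTR had 1632 reads and the 3′ LTR 42.

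**Figure D4:**
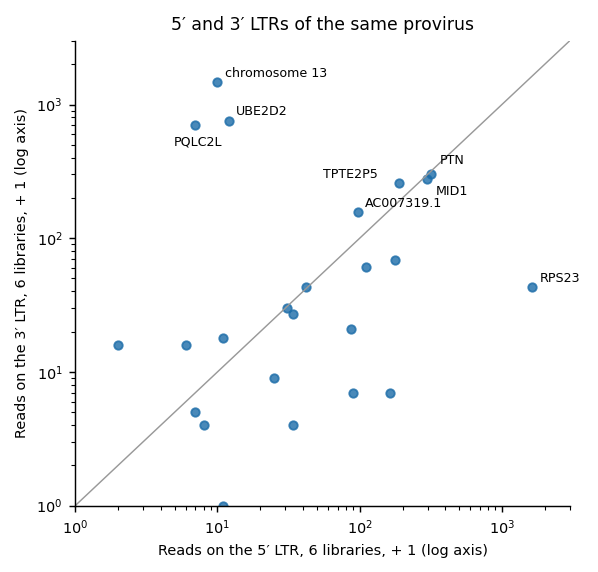
Reads, summed over the 6 libraries with 1 added, on the 5′ LTR (x) and the 3′ LTR (y) of the 24 proviruses with 10 or more reads on the pair; both axes are log axes and the line marks equal reads. PQLC2L, chromosome 13 and UBE2D2 lie far above the line, RPS23 far below it, and PTN, MID1 and TPTE2P5 near it.

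PTN encodes pleiotrophin, a secreted growth factor whose gene holds a HERV-E provirus known as a promoter in trophoblast. The provirus lies in the orientation of the gene, with its LTRs 90.3% identical. The 5′ LTR2B (chr7:137268352-137268846) was at 102, 291 and 202, 104, 0 and 0 TPM. The 3′ LTR2B (chr7:137262512-137262997) was at 100, 280 and 178, 118, 0 and 0 TPM. A HERVE_a-int piece (chr7:137267942-137268351) was at 38.8, 306 and 65.8, 34.9, 0 and 0 TPM. The lines CHLA 02, CHLA 04 and CHLA 05 were read and CHLA 06 had no read on any of them. PTN itself was at 587, 2007 and 1485, 1055, 0.321 and 0.145 TPM. The order of the lines was therefore alike for the LTRs and the gene, with CHLA 04 highest. A MER39B element, not of this family, lies beyond the 3′ LTR on the same strand. It was at 118, 185 and 163, 133, 0 and 0 TPM, so the pattern was not particular to the provirus. Both Ensembl transcripts of PTN in the files start upstream of the provirus.

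MID1 encodes a microtubule-associated ubiquitin ligase with a known HERV-E promoter. Its 5′ LTR2B (chrX:10589853-10590340) was the only member with 10 or more reads that holds the start of a quantified Ensembl transcript on its strand. It was at 102, 95.8 and 82.9, 36.0, 181 and 128 TPM. In the GENCODE release 44 annotation, 7 of the 109 members with 10 or more reads (6.42%) hold such a start, and 2.48% of all 1934. This share was not counted over all LTR elements either, so it cannot be called particular to these members. The 3′ LTR2B (chrX:10584793-10585283) was at 113, 78.9 and 76.9, 29.1, 163 and 117 TPM, and MID1 over all transcripts at 417, 365 and 369, 126, 643 and 473 TPM. All were highest in CHLA 06 and lowest in CHLA 05. The transcript that starts in the LTR, ENST00000380780, was at 56.6, 65.6 and 57.0, 5.54, 10.4 and 11.7 TPM. Its order of lines differed from that of its LTR, with CHLA 06 near the low end. The annotated start lies at base 432 of the 488 bases of the LTR. The stretch around it is shown with the transcribed bases in capitals.
MID1 transcript start, chrX:10589870-10589969, minus strand: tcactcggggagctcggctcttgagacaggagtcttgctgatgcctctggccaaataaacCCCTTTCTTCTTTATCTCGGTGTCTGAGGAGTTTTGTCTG

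In all, 24 of the quantified Ensembl transcripts, from 14 genes, start inside a member on its strand. Of these, 17 were at 0 in every library and 4, from 3 genes, exceeded 1 TPM in a library. They were ENST00000380780 of MID1, 2 transcripts of APOC1 and ENST00000620074 of UBXN8. APOC1 encodes an apolipoprotein of triglyceride-rich lipoproteins. ENST00000588750 of APOC1, which starts at base 276 of an LTR2 (chr19:44913972-44914427), was at 26.5, 0 and 1.26, 6.01, 39.9 and 27.9 TPM. The LTR2 itself had 0, 0 and 0, 0, 2 and 0 reads in the separate mapping. Among the other genes chosen for known HERV-E or LTR2 promoters, FABP7 and the amylase genes had few or no reads on nearby members. FABP7, a fatty acid binding protein of neural progenitors, was at 756, 2236 and 4102, 1400, 0.566 and 1.43 TPM. The 4 members within 50000 bp of it had at most 3 reads in any library. EDNRB, an endothelin receptor, was at 0.766, 3.78 and 2.94, 11.4, 0.0604 and 0.0274 TPM and had no member within that distance. Members farther from EDNRB were not examined. The members within 50000 bp of the salivary amylase genes AMY1A, AMY1B and AMY1C had no read in any library. AMY1B was at 0.0803 TPM in CHLA 02, and all other values of the 3 genes were listed at 0.

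LTRs at the end of genes formed another group. The LTR2B with the highest mean TPM (chr5:82273284-82273743, minus strand) overlaps the last exon of RPS23, a protein of the small ribosomal subunit. It was at 533, 218 and 508, 461, 955 and 892 TPM, from 247, 75 and 260, 193, 429 and 428 reads. All lines were read, and CHLA 06 was highest. RPS23 was at 493, 362 and 283, 330, 473 and 404 TPM. The transcript ENST00000296674 ends at base 386 of the LTR2B, before the only AATAAA of this LTR, which begins at base 403. The technical replicates of CHLA 04 differed at this LTR (exact two-sided binomial test, adjusted p = 1.75e-10).

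The highest LTR2C (chr16:29698251-29698741, plus strand) overlaps the last exon of QPRT, an enzyme of NAD synthesis. It was at 386, 2.72 and 0, 0, 795 and 937 TPM, from 191, 1 and 0, 0, 381 and 480 reads. QPRT was at 62.5, 1.74 and 0.221, 0.196, 113 and 112 TPM, and its order of lines was the same, with CHLA 06 highest. The transcript ENST00000395384 ends at base 449 of the LTR2C, 21 bases after the beginning of the AATAAA that is capitalized in the sequence shown above. The span of APOBEC3G, a cytidine deaminase that restricts retroviruses, holds an LTR2C (chr22:39055608-39056013) on its strand. In the GENCODE release 44 annotation a transcript of another gene, APOBEC3F, ends inside this LTR2C on its strand. The level of APOBEC3F was not examined. The LTR2C had 39, 0 and 0, 0, 78 and 69 reads, and APOBEC3G was at 18.3, 0 and 0, 0, 22.6 and 23.4 TPM.

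**Figure D5:**
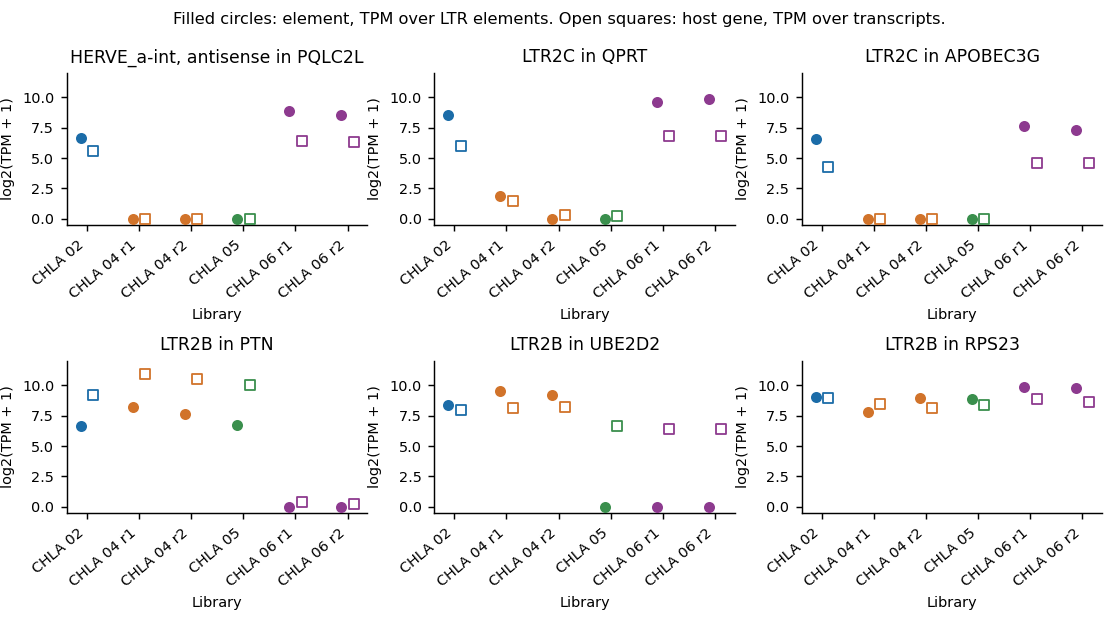
Level of 6 elements (filled circles, TPM scaled over LTR elements) and of the gene that spans each (open squares, TPM over transcripts) in each library, as log2(TPM + 1); the 2 scales are not comparable, only the pattern over libraries is. The QPRT, APOBEC3G and PTN elements are at or near 0 in the libraries where their gene is, while the UBE2D2 element is at 0 in CHLA 05 and CHLA 06, where the gene is read.

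Orientation toward the host gene was described for all members. Of the 233 members in genes of their own strand alone, 116 (49.8%) were detected, compared with 41.7% of all LTR elements so placed. Of the 414 members in genes of the other strand alone, 60 (14.5%) were detected, compared with 8.04% of all. Outside genes it was 238 of 1232 (19.3%), compared with 10.5%. Among detected members whose genes were all on 1 strand, 116 of 176 (65.9%) shared that strand, below the 74.7% of all detected elements. With 10 or more reads the shares were 83.1% and 91.8%. An exon on the same strand was overlapped by 9 of the 109 members with 10 or more reads (8.26%) and by 2.53% of all 1934. The same share was not counted over all LTR elements, so it cannot be called particular to these members.

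When LTRs were split by whether an internal element of any name lay beside them, 108 of 488 (22.1%) with one and 232 of 983 (23.6%) without were detected. With 10 or more reads it was 6.56% and 4.07%. For LTR2B these shares were 9.24% and 2.49%, and proviral LTR2B held 78.3% to 94.9% of the LTR2B reads in a library. For LTR2C they were 2.47% and 4.50%, and proviral LTR2C held 6.44% to 34.2% of the reads. When fragments of the 5 features within 1000 bp were joined, 178 loci held an internal element and an LTR, 92 an internal element alone and 1109 LTRs alone. Detected were 49 (27.5%), 26 (28.3%) and 280 (25.2%) of them. When internal elements of any name were counted, a choice made after the data were seen, 100 of 370 proviral loci and 206 of 804 solo loci were detected.

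With lines without a read taken as 0 TPM, a mean TPM at least 4-fold above the next line was found for 0 of the 109 members in CHLA 02, and for 1 each in CHLA 04, CHLA 05 and CHLA 06. Of all LTR elements with 10 or more reads, 0.272%, 1.25%, 6.21% and 3.45% were so in these lines. In CHLA 04 it was the HERVE_a-int piece in PTN, which no longer passed without CHLA 04 replicate 1. In CHLA 05 it was a HERVE-int of 2295 bp (chr2:158846950-158849244) in DAPL1, with 13 reads in CHLA 05 and 0 in every other library. Against the floor of 3 reads this was at least 3.57-fold higher, under the 4-fold limit, and the element did not pass with a minimum of 20 reads. DAPL1, a gene of epithelial differentiation, was at 13.1 TPM in CHLA 05 and at most 0.149 TPM in the others. In CHLA 06 it was the HERVE_a-int in PQLC2L, which did not pass when scaled by the reads on transcripts.

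Several members were read in all lines. A HERVE_a-int on chromosome 19 (19895560 to 19897352, plus strand) had the highest minimum among internal elements, at 161, 160 and 167, 199, 76.6 and 97.3 TPM. An LTR2 follows it directly (chr19:19897353-19897814), at 90.3, 116 and 113, 124, 57.6 and 45.6 TPM. In the pseudogene TPTE2P5, a HERVE-int of 5782 bp (chr13:40875044-40880825) had 306, 265 and 315, 305, 404 and 388 reads, and it holds the longest open reading frame of the named elements, 303 codons. TPTE2P5 itself was at 0.578 to 4.22 TPM. An LTR2 in NDUFV2, a subunit of mitochondrial complex I, was at 152, 151 and 144, 142, 98.3 and 115 TPM. A HERVE-int that overlaps an exon at the end of TMEM161B (chr5:88189236-88190729) was at 58.5, 105 and 75.2, 45.6, 47.3 and 37.2 TPM. A provirus in AC007319.1, a noncoding RNA gene, was instead low in CHLA 05 and CHLA 06. Its HERVE_a-int (chr2:187515854-187516612) had 40, 38 and 71, 2, 10 and 9 reads, and its 5′ LTR2 (chr2:187510490-187510951) 21, 40 and 34, 1, 0 and 0. TFPI, an inhibitor of coagulation on the opposite strand there, was at 143, 7.79 and 16.1, 11.6, 319 and 462 TPM.

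Other named elements were low in CHLA 06. An LTR2 outside genes (chr1:27060272-27060727, plus strand) was at 80.6, 196 and 248, 137, 0 and 4.20 TPM. A HERVE-int outside genes (chr10:15013301-15015356, minus strand) had 18, 40 and 27, 36, 2 and 1 reads. In ZNF586, a zinc finger gene, a HERVE_a-int (chr19:57815724-57816464) was at 48.2, 52.3 and 51.0, 32.6, 23.5 and 16.8 TPM, and ZNF586 was at 21.5 to 34.9 TPM. An LTR2 in the noncoding gene AP000473.5 (chr21:16638892-16639352) was instead lowest in CHLA 05, at 59.6 TPM, with 166, 266 and 207 TPM in CHLA 02 and CHLA 04 and 184 and 108 TPM in CHLA 06.

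Near-identical copies limited a part of the internal elements. Of the 37 internal members with 10 or more reads, 9 were at least 99% identical over their length to another member, all on chromosome 8, and 16 were at least 95% identical. Of the 72 LTRs, 1 and 9 were. Reads of such elements could have been split between copies, and the values of single copies are uncertain. None of the elements described by name above was among those at 99%.

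Technical replicates showed which members differed by more than counting error. In CHLA 04, 10 of 86 members with 10 or more reads in the pair differed (11.6%), compared with 6.81% of all LTR elements (exact two-sided binomial test with Benjamini-Hochberg adjustment over all LTR elements tested). In CHLA 06 it was 5 of 99 (5.05%), compared with 1.43%. The HERVE_a-int in PQLC2L differed in CHLA 06 (exact binomial test, adjusted p = 3.30e-19) with 465 and 366 TPM, and the HERVE_a-int in PTN in CHLA 04 (adjusted p = 1.25e-12 by the same exact test) with 94 and 30 reads. A HERVE-int outside genes (chr7:97951319-97955393) differed in both lines, with 166 and 101 reads in CHLA 04 and 148 and 96 in CHLA 06. For the PTN piece the TPM was 306 and 65.8 within CHLA 04. The lowest library with reads on it, CHLA 05 at 34.9 TPM, was at least 4.65-fold above the floor of 7.50 TPM in CHLA 06. No test between cell lines was made, since each is 1 biological sample.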

How the data were processed

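RNA of 4 AT/RT cell lines was sequenced by the authors as 6 stranded total RNA libraries (125 bp paired ends). Per the labels and the study's methods, reads were processed with CASAVA 1.8.2, FastQC and Trimmomatic and mapped to GRCh38 in CLCbio Genomics Workbench (RNA-Seq tool, default parameters). The authors deposited TPM per Ensembl transcript and, from a separate mapping, TPM per RepeatMasker LTR element, scaled over LTR elements alone. The 2 scales are not comparable.

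Read numbers were found by dividing each TPM by the TPM that a single read gives (whole within 0.1 read), which was tested on simulated data, as was the test of replicates. One read on 1000 bp was worth 0.899 to 1.34 TPM on LTR elements. Recovered reads on transcripts were 10265899 to 20520229 per library. Gene TPM was the sum over transcripts.

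Detection took its steps from the study, with log2(TPM + 2), quantile normalization and a lowess fit of variation against mean. The study read its threshold from the fit by inspection. Here it was set where the smoothed coefficient of variation peaked, at log2 1.78 (1.44 TPM), with the maximum of technical replicates. Cell lines were not tested against each other. Technical replicates were compared by exact binomial tests, with Benjamini-Hochberg adjustment over all LTR elements tested and a threshold of 0.05. Errors cover counting or technical replication only.

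Sequences and identities (edlib) were read from GRCh38. The sequences of some LTRs are not reported here. Named elements were the 10 internal and 10 LTR elements with the highest mean TPM, the top elements high in 1 line, the members of their loci, their host genes, and genes of a HERV-E list and a hypoxia list. The APOBEC3G element and the pairs of LTRs were chosen after their values were seen. The members and lists were chosen with earlier results of these data known. Python 3.11.15, pandas 2.3.3 and scipy 1.17.1 were used. The alternatives are given in the closing section.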

Additional observations from a re-analysis of the deposited data

How the results depend on the processing

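With 10 or more reads in a library as the rule, 37 internal elements and 72 LTRs were detected in place of 93 and 340, and with a fixed TPM of 10 it was 34 and 129. Leaving out each technical replicate gave 84 to 92 and 307 to 342. At 2-fold in place of 4-fold, 31 members were high in 1 line in place of 3. Leaving out each technical replicate gave 3 to 6. In the order of the line numbers, the family took 0.641%, 0.698%, 0.464% and 0.674% of the summed TPM, and without the member with the most reads 0.837%, 0.793%, 0.664% and 0.830% of the reads. Without a technical replicate the share ranged from 0.873% to 0.970% in CHLA 04 and from 1.45% to 1.63% in CHLA 06. The ratio of CHLA 06 to CHLA 05 was 2.08, 1.45 by summed TPM and 1.25 without the top member, and 1.95 to 2.20 without a replicate of CHLA 06. The share of detected members in the orientation of their gene was 65.9%, and 83.1% at 10 or more reads. Detected proviral loci were 49, or 100 when internal elements of any name were counted. The causes were not tested. No paired analysis was possible because replicate numbers mark repeat sequencing of 1 line and tie no lines together. Depth limits single elements: a count of 0 allows up to 3 reads, and 1 read on 1000 bp was worth 0.899 to 1.34 TPM.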
